A study of Mus musculus with 4 samples.

Results

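The cytosolic ribosomal protein genes encode the protein parts of the ribosome that translates nuclear messenger RNAs. They were taken as the mouse genes whose symbols follow the Rpl, Rplp and Rps naming pattern, without the Rps6k kinases. On the arrays, 60 such genes, of 19938 measured genes in all, had a probe set that named a single gene. Of the 60, 33 encode large subunit proteins, 20 encode small subunit proteins, and 7 are paralogs, copies of a ribosomal protein gene whose symbol carries an added l. Their values were compared between 2 mouse cell lines, TS2 and TS1, which the labels describe as derived from CD4+ T lymphocytes.

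Both lines received no treatment and were grown the same way, in Iscove-Dulbecco's medium with murine interleukin-9, a T cell growth factor. Each line gave 2 biological duplicates, A and B, and the total RNA of each was hybridised to 1 Affymetrix mouse gene array. The labels do not say that the duplicates were separate cultures, so the p-values measure the spread between these samples, which may be technical. Values are log2 of the deposited intensities, and each gene is read by the brightest of its single-gene probe sets. Each difference is TS2 minus TS1 on the log2 scale. A gene was called changed at an adjusted p under 0.05, from limma with Benjamini-Hochberg adjustment over all 19938 genes.

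A ribosome has a small subunit, which reads the messenger RNA, and a large subunit, which joins the amino acids. Its proteins are needed in nearly equal numbers, and their messenger RNAs are known to be translated together: most begin with a C and a run of pyrimidines, the 5′ terminal oligopyrimidine (TOP) motif, through which the kinase mTOR and the RNA-binding protein LARP1 control their translation. Activated T cells are known to make many ribosomes before they divide.

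The median intensity was 88.6 on TS2 A, 89.9 on TS2 B, 89.0 on TS1 A and 92.5 on TS1 B, over 35556 probe sets. The labelled cell type was only partly borne out by its markers. Of 15 T cell marker genes, 13 were measured, of which 4 rose in TS2 (Ptprc, Cd3e, Cd247 and Zap70), 1 fell (Lat) and 8 did not pass the test, where 5.05% of all genes were called higher and 8.45% lower. The means of the 13 ran from 4.86 to 12.64 in TS2 and from 4.52 to 8.99 in TS1. Cd3e, which encodes the CD3 epsilon chain, averaged 12.64 in TS2 and 6.43 in TS1. Cd4, the co-receptor that the labels name, averaged 5.21 in TS2 and 5.37 in TS1. Of 18 markers of other cell types, 15 were measured, of which Ncr1 rose and Kit and Pdgfra fell. The means of the 15 ran from 3.79 to 13.04 in TS2 and from 3.77 to 12.80 in TS1, with medians of 5.36 and 5.26. Fcer1a, the IgE receptor chain of mast cells, averaged 13.04 in TS2 and 12.80 in TS1. On the same list, Cpa3 averaged 8.43 in TS2 and 9.06 in TS1, and Kit 5.40 in TS2 and 7.30 in TS1. The part of these marker differences in the results on ribosomal protein genes was not tested.

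The TOP motif lies at the first bases of a messenger RNA, so the start sites of the genes were examined for a C followed by at least 7 further C or T bases. RefSeq promoter sequences of mouse assembly GRCm38.p6, from 250 bases before to 50 bases after each annotated start, were given for 48 of the 60 genes. Between 25 bases before and 50 bases after the start, 36 of the 48 held such a run, 75% of them, against 24.9% of 17492 protein-coding genes. It was found in 20 of 25 large subunit genes, 12 of 17 small subunit genes and 4 of 6 paralogs. A search of this kind finds letters, and neither a used start site nor a working motif.

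The windows below are 30 bases long, read 5′ to 3′ on the gene's own strand. The longest run, or the earliest of equally long ones, is in capitals. They are shown for the large subunit gene that was called lower in TS2 (Rpl36a), for another X-linked gene (Rpl10), for the large subunit gene with the greatest positive difference (Rpl13), for 2 small subunit genes with differences near 0 (Rps6 and Rps9), and for a paralog (Rps27l).
Rpl36a: cggctctagCCTCTCTCTTTCCgagctgct
Rpl10: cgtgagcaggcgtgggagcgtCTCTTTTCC
Rpl13: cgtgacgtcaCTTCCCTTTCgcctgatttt
Rps6: ggaagtcgggCCTCTTTTTCgtgacgcctc
Rps9: aaccgccttgtCTCTCTTTgtctcgggcct
Rps27l: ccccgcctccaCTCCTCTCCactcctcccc
Rpl36a lies on the plus strand at chrX:134585672-134585701, with a run at bases 28 to 40 of the transcript. Rpl10 lies on the plus strand at chrX:74270836-74270865, with a run at bases 42 to 50. Rpl13 lies on the plus strand at chr8:123102324-123102353, with a run at positions -16 to -7. The run of Rps6, on the minus strand at chr4:86857349-86857378, spans the annotated start, from -1 to 9. That of Rps9, on the plus strand at chr7:3704025-3704054, does too, from -5 to 3. The run in capitals for Rps27l, on the plus strand at chr9:66946053-66946082, lies at -22 to -14. Another run of the same length, left in small letters, follows it in the window and lies nearer to the annotated start. Genes with a run had differences of both signs, as Rpl36a and Rpl13 did. Those of the 48 with no run in the searched window were Rpl22, Rpl24, Rps3a1, Rpl10l, Rpl27, Rps4x, Rps28, Rpl7l1, Rpl23, Rps13, Rps3 and Rplp0. Of these, all but Rplp0 had negative differences, where 39 of all 60 ribosomal protein genes (65%) did. Whether a run goes with the direction of a difference was not tested.

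Other promoter letters were counted over the whole length of the same sequences. CGGAAG, a core that ETS family factors such as GABPA are known to bind, occurred on either strand in 32 of 48 genes (66.7%), against 23.5% of protein-coding genes. It occurred in 16 of 25 large subunit genes, 14 of 17 small subunit genes and 2 of 6 paralogs. AAGATGGC, a core of the YY1 motif, occurred on either strand in 3 of 48 genes (6.25%), against 3.57% of protein-coding genes. TATAAA, the TATA box, was searched on the gene's own strand between 45 and 16 bases before the start, and was found in 0 of 48 genes, against 3.21% of protein-coding genes. A CGGAAG or AAGATGGC match may overlap the pyrimidine window.

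The question of the comparison is whether the 2 lines differ in the transcripts of the ribosome's proteins, and nearly all of these genes differed little. Rpl36a, a large subunit protein gene on the X chromosome, fell in TS2, to 63.8% of its TS1 level. Rps4l, a copy of the small subunit gene Rps4x that RefSeq lists as a transcribed pseudogene, rose 1.41-fold. The other 58 did not pass the test. In RNA of whole cultures, fewer cells with a transcript and less of it per cell cannot be told apart. The count of 2 called genes of 60 is 3.33%, where 13.5% of all genes were called. In one direction, 1 of 60 was higher in TS2, where 5.05% of all genes were, and 1 of 60 was lower, where 8.45% of all genes were. At an unadjusted p under 0.05, the count was 7 of 60 (11.7%), 2 higher and 5 lower, where 29.4% of all genes passed. In an alternative in which the dimmest 50% of probe sets were left out, 28.4% of the remaining 10194 genes passed, and the count of ribosomal protein genes was still 2, of 57 kept. With single arrays left out, the count was 0 without TS2 A or TS2 B, where 4.91% and 5.19% of all genes were called, and 1 without TS1 A or TS1 B, where 11.0% and 7.85% were.

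Differences were small as well as rarely called. The median size of the difference, whatever its sign, was 0.066 over the 60 genes and 0.16 over all genes. A difference within 0.2 was seen in 49 of the 60 (81.7%), against 57.3% of all genes, and one within 0.5 in 59 of the 60 (98.3%), against 84.4%. No gene of the 60 reached a 2-fold difference, which 1205 of all genes (6.04%) did. The ribosomal protein genes lie at the bright end of the arrays, with a median log2 intensity of 12.34, against 6.61 over all genes, and 45 of them are among the brightest 5% of genes by mean over the 4 arrays. Brighter genes were therefore also compared, a choice made after the data were seen. With the dimmest 95% of genes left out, the median size was 0.060 over these 45 and 0.17 over all 997 genes kept, and 41 of the 45 (91.1%) differed by less than 0.2, against 55.2% of the 997. Of the 45, 1 was called (2.22%), against 11.3% of the 997. Whether the array's response narrows differences at this brightness was not tested. The 95% confidence interval of the difference, taken gene by gene, lay within 1.5-fold in either direction for 56 of the 60 genes (93.3%). It lay within 2-fold for all 60. Over all genes, it lay within 1.5-fold for 67.4% and within 2-fold for 17659 of 19938. Among the 60, the intervals that reached past 1.5-fold were those of Rpl36a, Rpl14, Rpl10l and Rps4l.

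**Figure D1:**
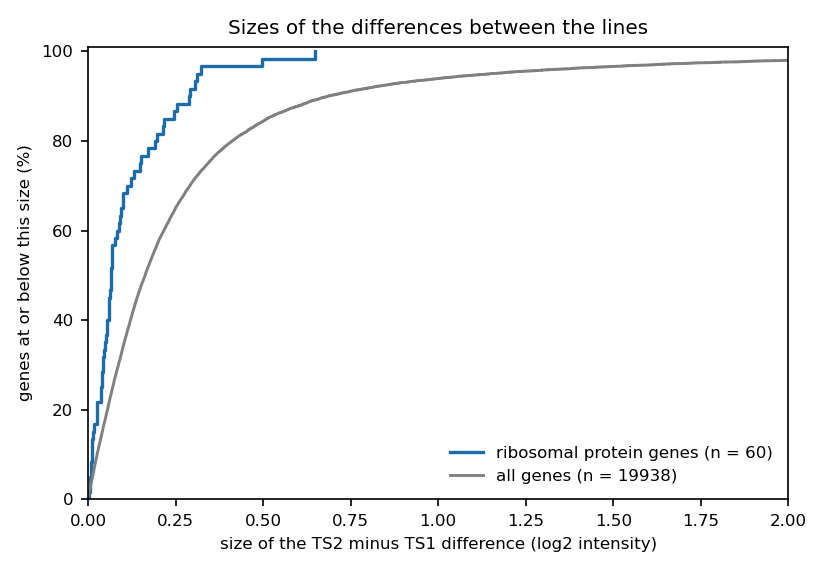
Share of genes (vertical axis, percent) whose TS2 minus TS1 difference on the log2 scale was at or below a given size (horizontal axis, drawn to a size of 2), for the 60 ribosomal protein genes and for all 19938 genes. The line of the ribosomal protein genes runs above that of all genes and ends at the 0.65 of Rpl36a.

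The direction leaned towards lower values in TS2. The difference was negative for 39 of the 60 genes (65%), against 47.3% of all genes, and its median was -0.055, against 0.013 over all genes. The median was -0.055 over the large subunit genes, -0.055 over the small subunit genes and -0.10 over the paralogs. Brighter genes leaned the same way. With the dimmest 50% of probe sets left out, the median over all 10194 genes kept was -0.083. The lean was therefore not particular to the ribosomal protein genes. The duplicates of both lines were separate for 27 of the 60 genes, meaning that both TS2 arrays lay on the same side of both TS1 arrays. This is 45%, where 58.4% of all genes were separate. Both TS2 arrays lay below both TS1 arrays for 21 genes (29.3% of all genes did) and above for 6 (29.1% of all genes did). A lean of this size moved with the scaling: when arrays were quantile normalized again, the median of the large subunit genes was -0.012 and that of the paralogs -0.025. It also moved with single arrays: the small subunit median was -0.0046 without TS1 B and -0.10 without TS1 A, and the paralog median was 0.0034 without TS2 A, -0.013 without TS1 B and -0.18 without TS1 A.

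**Figure D2:**
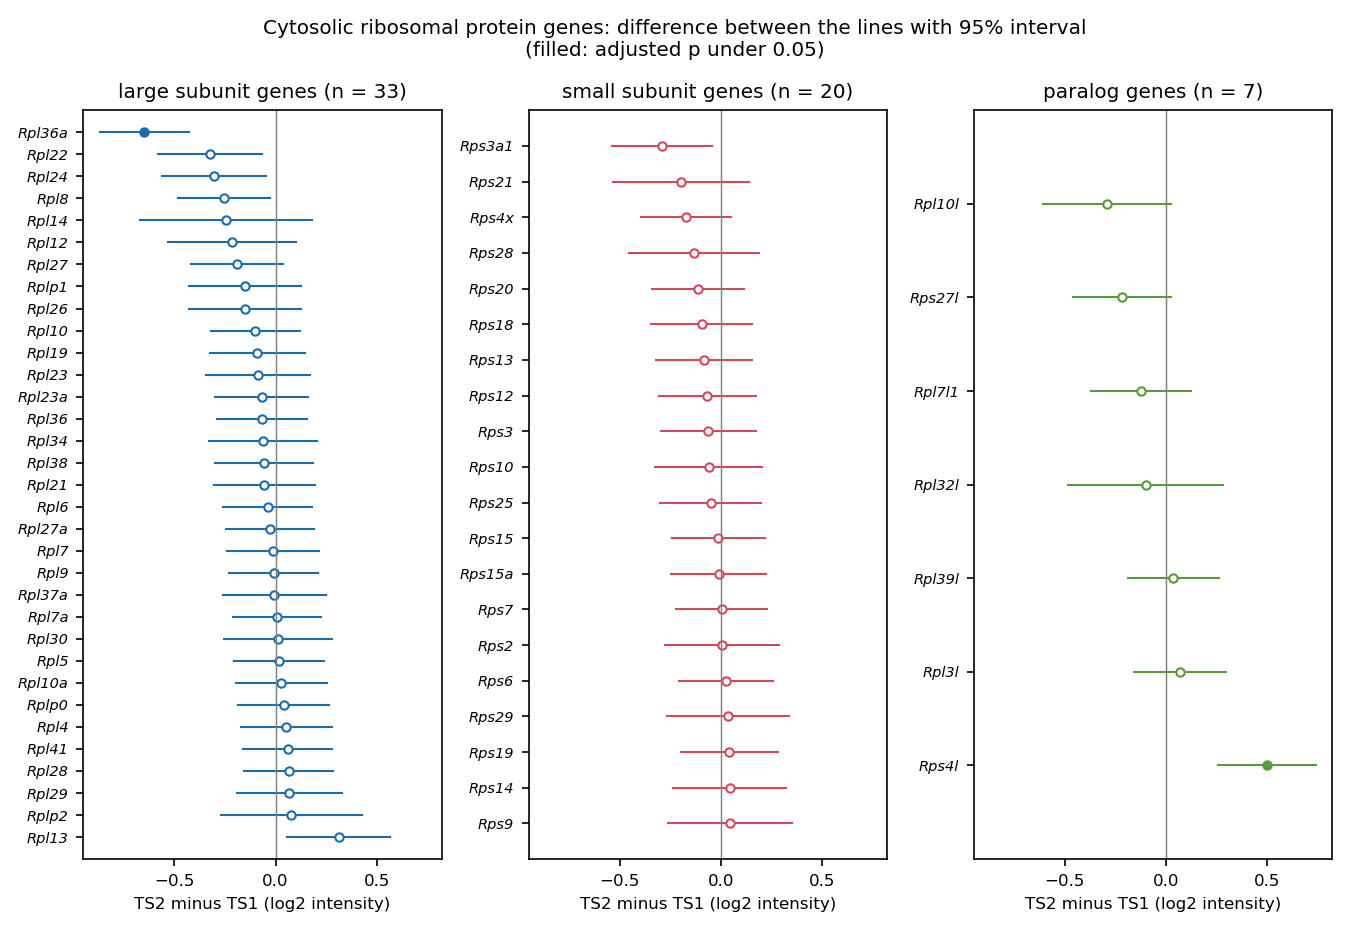
TS2 minus TS1 difference in log2 intensity for each ribosomal protein gene, by class, with its 95% confidence interval from limma. Filled points passed an adjusted p under 0.05: Rpl36a among the large subunit genes, at -0.65, and Rps4l among the paralogs, at 0.50.

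Over the classes, 1 of 33 large subunit genes, 0 of 20 small subunit genes and 1 of 7 paralogs were called by limma. An unadjusted p under 0.05 was seen for 5, 1 and 1 of them. Over all genes, 13.5% were called and 29.4% had such an unadjusted p. The SD of the differences was 0.16 over the large subunit genes, 0.091 over the small subunit genes, 0.26 over the paralogs and 0.62 over all genes. Of the small subunit genes, 19 of 20 differed by less than 0.2, against 57.3% of all genes. The duplicates were separate for 18 of 33 large subunit genes (14 with TS2 below, 4 above) and for 4 of 20 small subunit genes (all with TS2 below). They were separate for 5 of 7 paralogs (3 with TS2 below, 2 above), where 58.4% of all genes were. No difference between the classes was tested.

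Duplicates of a line also differed: the median size of the gap between A and B over the 60 genes was 0.061 in TS2 and 0.082 in TS1. The median size of the difference between the lines was 0.066. The first is a gap between single arrays and the second between means of 2 arrays, so the sizes are not like measures. Centred on each gene's mean, the small subunit genes had a median of -0.0037 on TS2 A, -0.072 on TS2 B, -0.021 on TS1 A and 0.068 on TS1 B. TS2 B was above TS2 A for 4 of the 20 genes, and TS1 B was above TS1 A for 16 of them. The median of the large subunit genes was -0.012 on TS2 A, -0.0063 on TS2 B, 0.0092 on TS1 A and 0.021 on TS1 B. The lowest and highest class medians of the small subunit genes thus both came from B arrays. The part of the array in the shift of the small subunit genes was not tested.

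**Figure D3:**
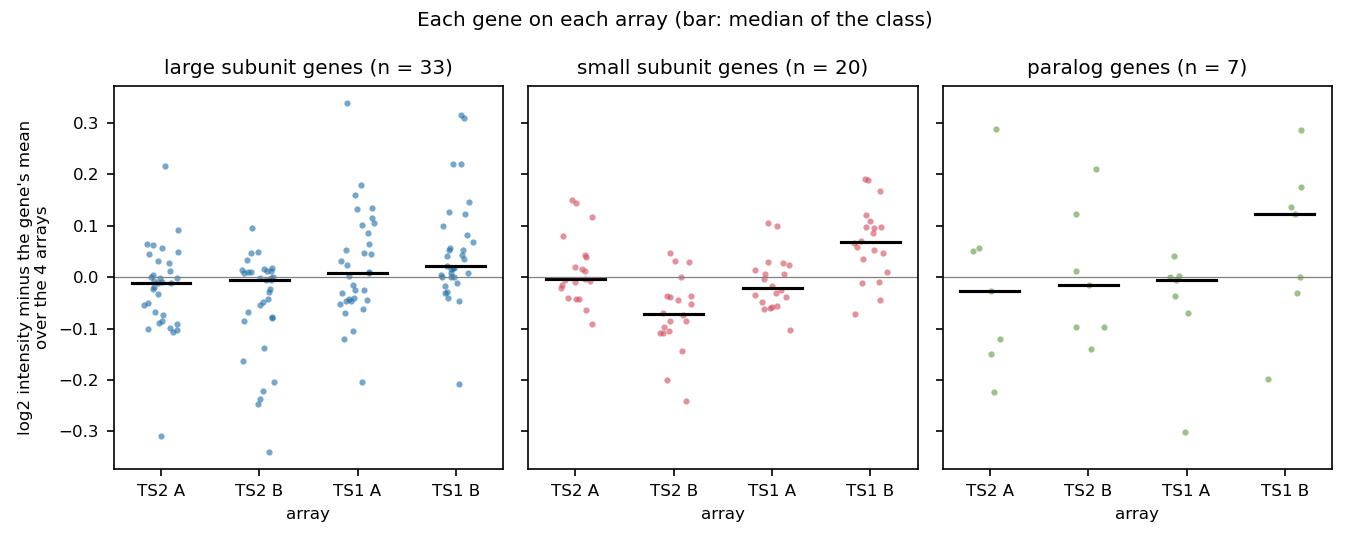
Log2 intensity of each ribosomal protein gene on each array minus the gene's mean over the 4 arrays, by class, with a bar at the class median. The small subunit genes lie lowest on TS2 B, with a median of -0.072, and highest on TS1 B, with a median of 0.068.

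Among the large subunit genes, Rpl36a had the greatest difference. It encodes a protein of the site where the deacylated transfer RNA leaves the ribosome. Its value was 12.31 on TS2 A and 12.28 on TS2 B, against 12.96 on TS1 A and 12.93 on TS1 B. The duplicates of a line lay close together and both TS2 arrays were well below both TS1 arrays. The mean was 12.29 ± 0.02 in TS2 and 12.94 ± 0.02 in TS1 (SD, n = 2 arrays each), a difference of -0.65 (SE 0.086, 95% interval -0.87 to -0.43, adjusted p = 0.0127 by limma). A further probe set that names Rpl36a alone gave 11.94 on TS2 A and 11.99 on TS2 B, against 12.68 on TS1 A and 12.73 on TS1 B, a difference of -0.74. A probe set that also names the predicted gene Gm6525 gave -0.64. In the fit of all 35556 probe sets these 3 passed, with adjusted p of 0.0355, 0.0282 and 0.0363. With an array of TS2 left out the difference kept its size but not its call: it was -0.66 when TS2 A was dropped (adjusted p = 0.0791) and -0.63 when TS2 B was dropped (adjusted p = 0.0844). It passed when TS1 A or TS1 B was dropped (adjusted p = 0.0385 and 0.0428).

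The next large subunit genes lay lower in TS2 without passing the test. Rpl22, which binds RNA and is known from mouse knockouts to be needed for the development of T cells with αβ receptors, had 8.70 on TS2 A and 8.58 on TS2 B, against 8.90 on TS1 A and 9.02 on TS1 B. The groups did not overlap, and the difference was -0.32 (SE 0.10, adjusted p = 0.106 by limma). Rpl24, which forms a bridge between the subunits, had 10.96 on TS2 A and 10.86 on TS2 B, against 11.15 on TS1 A and 11.28 on TS1 B. Its difference was -0.31 (adjusted p = 0.120), and its 3 probe sets gave -0.32 to -0.31. Rpl8, a protein close to the peptidyl transferase centre, had 12.25 on TS2 A and 12.18 on TS2 B, against 12.45 on TS1 A and 12.49 on TS1 B. The arrays of the lines were separate, the difference was -0.25 (adjusted p = 0.138), and it passed under a prior variance with an intensity trend (adjusted p = 0.0375). Rpl14 differed by -0.25 (adjusted p = 0.404), and its arrays overlapped, with 9.58 and 9.36 in TS2 against 9.52 and 9.91 in TS1.

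Rpl13 stood alone at the upper end of the large subunit genes. It had 11.93 on TS2 A and 11.81 on TS2 B, against 11.61 on TS1 A and 11.50 on TS1 B. Both TS2 arrays were above both TS1 arrays, by 0.31 on average (SE 0.098, adjusted p = 0.111 by limma), which did not pass. All 9 probe sets that name Rpl13 alone lay on the same side, from 0.31 to 0.36. After it came Rplp2 at 0.077, Rpl29 at 0.069, Rpl28 at 0.065 and Rpl41 at 0.060, with adjusted p from 0.682 to 0.770. Rplp2 belongs to the acidic stalk that recruits elongation factors. The other stalk genes, named for that role after their values were seen, differed by -0.15 (Rplp1) and 0.040 (Rplp0), and did not pass either.

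Of the small subunit genes, read by single-gene probe sets, Rps3a1 had the most negative difference. It encodes a protein of the small subunit's platform and had 9.02 on TS2 A and 8.91 on TS2 B, against 9.21 on TS1 A and 9.30 on TS1 B. The lines were separate but the difference of -0.29 (SE 0.096) did not pass (adjusted p = 0.122 by limma). Probe sets of Rps3a1 that also name Tapbp were brighter (11.76 and 11.51 on TS2 A) and differed by -0.19 and -0.22. Rps21 differed by -0.20 (adjusted p = 0.394), with 10.54 and 10.25 in TS2 against 10.52 and 10.66 in TS1, so that its duplicates in TS2 were farther apart than the line means. Rps28 and Rps20 differed by -0.13 and -0.11, with adjusted p of 0.564 and 0.484. At the other end, Rps9 differed by 0.045, Rps14 by 0.044, Rps19 by 0.043, Rps29 by 0.038 and Rps6 by 0.027, with adjusted p from 0.817 to 0.890. Rps6 is the substrate by which S6 kinase activity is usually read, and Rps19 and Rps14 are known from human disease, in Diamond-Blackfan anaemia and in a form of myelodysplastic syndrome. Their values overlapped between the lines.

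Of the ribosomal protein genes measured here, 3 lie on the X chromosome, and TS2 was below TS1 on all arrays for each of them. The same held for 21 of the 60 genes, for 267 of all 739 genes on the X chromosome and for 29.3% of all genes. For Rpl36a the values are those already given. Rps4x, which encodes an RNA-binding protein of the small subunit, had 12.37 on TS2 A and 12.32 on TS2 B, against 12.54 on TS1 A and 12.50 on TS1 B. Its difference was -0.17 (adjusted p = 0.271 by limma), and its 5 probe sets gave -0.24 to -0.17. Rpl10, a protein that joins the large subunit late in its maturation, had 13.62 on both TS2 arrays, against 13.70 on TS1 A and 13.74 on TS1 B, a difference of -0.10 (adjusted p = 0.510). Rpl39, also X-linked, had only probe sets that name several genes, and there it went the other way, with 13.52 on TS2 A and 13.60 on TS2 B, against 13.35 on TS1 A and 13.46 on TS1 B.

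The median difference was -0.17 over the 3 X-linked genes and -0.044 over the 50 large and small subunit genes on other chromosomes, of which limma called 0 and 5 had an unadjusted p under 0.05. Over all 739 genes on the X chromosome the median was -0.022, and 155 were called (21.0%), 29 higher and 126 lower in TS2. Xist, the long RNA of X inactivation, had 5.04 on TS2 A and 4.81 on TS2 B, against 11.54 on TS1 A and 11.50 on TS1 B, a fall by 6.60 on the log2 scale (SE 0.11, adjusted p = 9.39e-05 by limma). The part of Xist in the values of Rpl36a was not tested.

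The paralogs had the widest spread. Rps4l had 6.87 on TS2 A and 6.79 on TS2 B, against 6.28 on TS1 A and 6.38 on TS1 B. Both TS2 arrays were higher, by 0.50 (SE 0.094, 95% interval 0.26 to 0.74, adjusted p = 0.0316 by limma). A further probe set that names Rps4l alone differed by -0.073, with 6.13 and 6.08 in TS2 against 6.16 and 6.19 in TS1. The call was lost with the mean of both probe sets (difference 0.21, adjusted p = 0.198), and when TS2 A, TS2 B, TS1 A or TS1 B was dropped (adjusted p = 0.176, 0.127, 0.0839 and 0.0674).

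The other paralogs did not pass the test. Rpl10l, a copy of Rpl10 that is expressed mainly in the testis, had 5.51 and 5.52 in TS2 against 5.67 and 5.95 in TS1, and differed by -0.29 (adjusted p = 0.202 by limma). Rps27l, which p53 is known to induce, had 12.25 and 12.27 in TS2 against 12.41 and 12.54 in TS1, and differed by -0.22 (adjusted p = 0.211). Neither of these overlapped between the lines. Rpl7l1, related to Rpl7 and known as a factor of large subunit assembly, differed by -0.12 (adjusted p = 0.469), and Rpl32l by -0.10 (adjusted p = 0.722). The copies known from heart and muscle (Rpl3l) and from the testis (Rpl39l) differed by 0.069 and 0.036. Their values were between 4.09 and 4.77 on every array.

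Where a paralog and its partner gene can take each other's place in the ribosome, the question is whether their balance moved between the lines. Within each array, the log2 value of the partner was subtracted from that of the paralog, and only the shift of this quantity between the lines is read here, since the levels of different probe sets cannot be compared. Of 9 pairs, 7 had both TS2 arrays on one side of both TS1 arrays, 4 with a shift to the paralog in TS2 and 3 with a shift to the partner. Of all single genes, 58.4% were separate in this way, and the share over other pairs of genes was not counted. With 2 arrays a line, the smallest p of an exact permutation test (two-sided) is 0.33, and all 7 had that value (0.429 after adjustment over the 9 pairs). These shifts are therefore descriptions. For Rpl3l and Rpl10l, at 5.95 or less on every array, signal over background was not examined, so their shifts may hold mainly the partner's difference.

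The greatest shift was that of Rpl22l1 against Rpl22. The difference of the pair was -1.02 on TS2 A and -1.01 on TS2 B, against -1.74 on TS1 A and -1.78 on TS1 B, a shift of 0.74 towards Rpl22l1 in TS2. Rpl22 is known in mice to repress Rpl22l1. Rpl22l1 was read only by probe sets that also name Gm15421, and had 7.68 on TS2 A and 7.57 on TS2 B, against 7.16 on TS1 A and 7.24 on TS1 B. Both genes were separate between the lines, in opposite directions, and Rpl22l1 differed by 0.42 (adjusted p = 0.0986 by limma over all probe sets). In an alternative chosen after the data were seen, in which probe sets of several genes were added to the single-gene fit, Rpl22l1 passed (adjusted p = 0.0495).

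For Rps4l against Rps4x the difference was -5.50 on TS2 A and -5.53 on TS2 B, against -6.25 on TS1 A and -6.11 on TS1 B, a shift of 0.67. That shift rests on the brighter of 2 probe sets of Rps4l, and the other one differed by only -0.073 between the lines. For Rpl36al against Rpl36a the difference of the pair was 0.0093 on TS2 A and 0.050 on TS2 B, against -0.60 on TS1 A and -0.50 on TS1 B, a shift of 0.58. This last shift came from Rpl36a, since Rpl36al, read by probe sets that also name Dnaaf2, differed by -0.070 (adjusted p = 0.728 by limma over all probe sets). For Rps27l against Rps27 the difference of the pair was 1.04 on TS2 A and 1.28 on TS2 B, against 1.45 on TS1 A and 1.55 on TS1 B, a shift of -0.34 away from the paralog. Rps27, read by a probe set that also names Rps27rt, itself differed by 0.12. The remaining pairs shifted by -0.19 (Rpl10l against Rpl10), -0.13 (Rpl39l against Rpl39), -0.11 (Rpl7l1 against Rpl7), -0.020 (Rpl32l against Rpl32) and 0.038 (Rpl3l against Rpl3). Those of Rpl39l and Rpl32l overlapped between the lines, with exact permutation p of 0.667 and 1. The probe set of Rpl32 also names Rpl32l, so this pair cannot show a shift in balance.

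**Figure D4:**
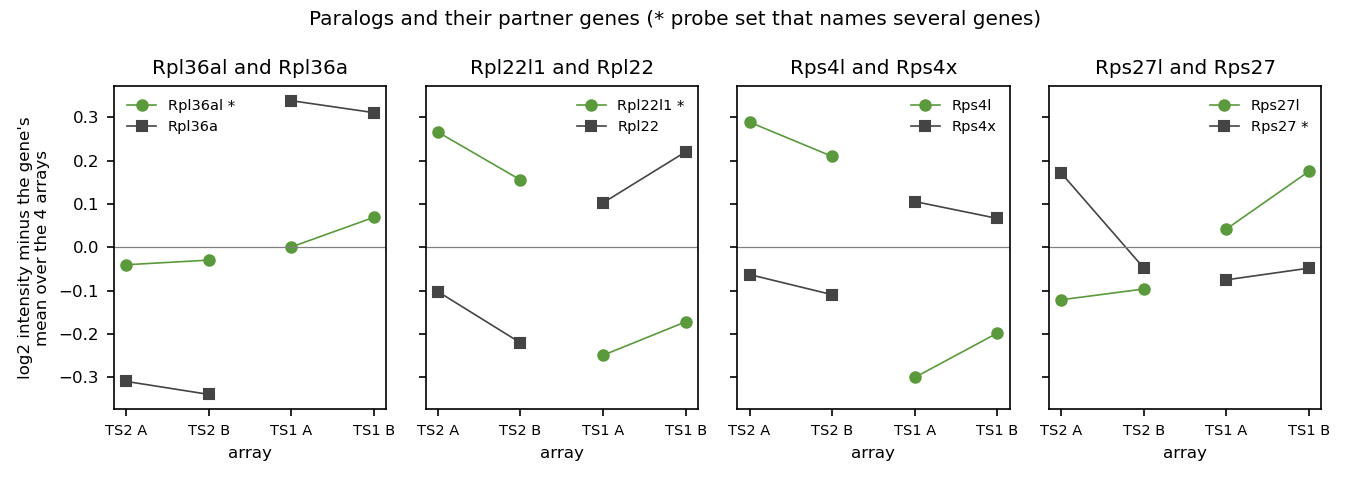
Log2 intensity minus the gene's mean over the 4 arrays for a paralog (green circles) and its partner (grey squares), for the 4 pairs with the greatest shifts, with TS2 arrays left of TS1 arrays. Paralog and partner lie on opposite sides in the lines for Rpl22l1 and Rpl22 and for Rps4l and Rps4x, while Rpl36a moves with Rpl36al nearly level. Rps4l is drawn from the brighter of its 2 probe sets. An asterisk marks a probe set that names several genes.

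Not every ribosomal protein could be read alone. Of the ribosomal protein genes in a reference list, 55 had a single-gene probe set. Of these, 53 are among the 60, and Fau and Rpsa, whose symbols do not follow the pattern, differed by -0.10 and 0.068. Another 16 were named only together with other genes. They are Rpl3, Rpl11, Rpl13a, Rpl15, Rpl17, Rpl31, Rpl32, Rpl35, Rpl35a, Rpl37, Rpl39, Rps16, Rps23, Rps24, Rps26 and Rps27. Their differences ran from -0.26 (Rpl15) to 0.16 (Rpl39) with a median of -0.030, 10 of them negative, and limma called 0 of them.

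The choice of probe set can be examined only for genes with several. In some of these both signs occurred, as in Rps4l (-0.073 and 0.50) and Rpl7 (-0.012 to 0.023). In others all lay on one side, as in Rpl13 (0.31 to 0.36). Of the 60 genes, 38 had several single-gene probe sets and 22 had one. Over all 212 of these probe sets the median difference was -0.060, and 149 were negative. In the fit of all probe sets, where 5.20% were called, 2 of the 212 were, both of Rpl36a. Ribosomal protein genes are known to have many near-identical pseudogenes, and which copies a probe set reads was not analysed here, so probe sets of a gene may not be independent readings.

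The genes that regulate, assemble and use the ribosome are given for comparison, by lists written with earlier results of these data known. The share of all genes called was 5.05% higher and 8.45% lower in TS2. The lists are brighter than most genes. Their median TS2 means ran from 9.47 (regulators of mTOR and TOP translation) to 12.31 (TOP messenger RNAs), against a median of 6.61 over all genes. With the dimmest 50% of genes left out, 22.9% of the 9969 genes kept were called, both directions together. The split of that share by direction was not counted, and no list was tested against genes of like brightness. Of 114 ribosome biogenesis factors, which process ribosomal RNA and build the subunits, 110 were measured, and 27 of them (24.5%) fell, 0 rose and 83 did not pass. The median difference was -0.30, 103 of 110 were negative, and 67 were lower and 0 higher at an unadjusted p under 0.05. Nsun5, an RNA methyltransferase of the large subunit's ribosomal RNA, fell by 0.78 (adjusted p = 0.0175 by limma), Mrto4, a placeholder for the stalk protein Rplp0 during assembly, by 0.77 (adjusted p = 0.00791) and Nol6, a small subunit processome component, by 0.72 (adjusted p = 0.0245). The count of lower genes depended on single arrays, at 0 without TS2 A or without TS2 B, 5 without TS1 B and 14 without TS1 A, while the median lay between -0.33 and -0.23 in every alternative. The nucleolar proteins nucleolin (Ncl, 0.074), fibrillarin (Fbl, -0.20) and nucleophosmin (Npm1, -0.014), named after their values were seen, did not pass.

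All 20 genes of RNA polymerase I and its cofactors, which transcribe ribosomal RNA, were measured, and 6 (30%) fell, 0 rose and 14 did not pass, with a median of -0.23. The initiation factor of this polymerase, Rrn3, fell by 0.63 (adjusted p = 0.0155 by limma), and its subunits Polr1e and Polr1c by 0.61 and 0.59 (adjusted p = 0.0278 each). Of 20 chaperones and importins of ribosomal proteins, 5 (25%) fell, 0 rose and 15 did not pass, with a median of -0.29. Tsr2, an X-linked gene whose protein escorts Rps26 to the ribosome, had 8.95 on TS2 A and 8.70 on TS2 B, against 10.25 on TS1 A and 10.19 on TS1 B. It fell by 1.39 (adjusted p = 0.00353 by limma), with no overlap, while the probe set of Rps26, which also names Gm6654, differed by 0.0099. Pdcd2l and Bccip fell by 0.50 and 0.49 (adjusted p = 0.0257 and 0.0382). The 6 polymerase I genes became 0 without TS2 A, TS2 B or TS1 B, and 3 without TS1 A. The 5 chaperones became 1 without TS2 A, TS2 B or TS1 B, and 2 without TS1 A.

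Of 44 translation initiation factors, 37 were measured, 9 of which fell, 1 rose and 27 did not pass (27.0% called), with a median of -0.16. Eif1ax, which scans for the start codon, fell by 1.06 (adjusted p = 0.00501 by limma), Eif2b3, of the nucleotide exchange factor, by 0.72 (adjusted p = 0.0125) and Eif5b, which joins the subunits, by 0.69 (adjusted p = 0.0113). Mcts1, a factor of re-initiation, rose by 0.69 (adjusted p = 0.0275). The 9 lower genes became 1 without TS2 A or TS2 B, 3 without TS1 B and 6 without TS1 A. Of 14 elongation and termination factors, 13 were measured, and only Gspt2, an X-linked release factor gene, passed, falling by 0.79 (adjusted p = 0.0121; 7.69% called, median -0.18). Without TS2 A or TS2 B the count of lower genes was 0, and without TS1 A it was 2.

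A list of messenger RNAs with a TOP motif, which holds Fau and Rpsa beside genes of other functions, held 21 genes, of which 17 were measured. Their differences ran from -0.42 (Eef1d) to 1.14 with a median of -0.035, and Vim, the intermediate filament gene vimentin, was the 1 gene called (5.88%), higher by 1.14 (adjusted p = 0.0032 by limma). Eef1a1 and Eef2, the main elongation factors, differed by 0.056 and -0.0032, and Tpt1 by -0.032. Of 34 regulators of mTOR and of TOP translation, 32 were measured, 2 of which rose and 2 fell (12.5% called, median -0.033). Eif4ebp1, an inhibitor of cap-dependent translation that mTOR inactivates, had 8.88 and 8.78 in TS2 against 6.86 and 6.85 in TS1, and rose by 1.98 (adjusted p = 0.000713). Castor1, an arginine sensor of the mTOR pathway, had 11.08 and 11.49 in TS2 against 9.39 and 8.18 in TS1, and rose by 2.50 (adjusted p = 0.0227). Sesn2, a leucine sensor, fell by 0.82 (adjusted p = 0.0125) and Mtor itself by 0.52 (adjusted p = 0.0258), while Larp1 differed by -0.17 and did not pass. Without TS2 A or TS2 B, 1 rose and 0 fell.

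Of 20 ribosome rescue factors, which free stalled ribosomes, 3 (15%) rose, 0 fell and 17 did not pass, with a median of 0.13. They were Pelo, by 0.60 (adjusted p = 0.0244 by limma), N4bp2, by 0.56 (adjusted p = 0.0248), and Hbs1l, the partner of Pelo, by 0.46 (adjusted p = 0.0371). The count of 3 became 0 without TS2 A or TS2 B, 1 without TS1 A and 2 without TS1 B. The ribosomal protein genes, at a median of -0.055, were thus nearer to 0 than the biogenesis, polymerase I, chaperone and initiation lists. The TOP messenger RNAs (-0.035) and the regulators of mTOR and TOP translation (-0.033) were nearer to 0 still. No difference between lists was tested.

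**Figure D5:**
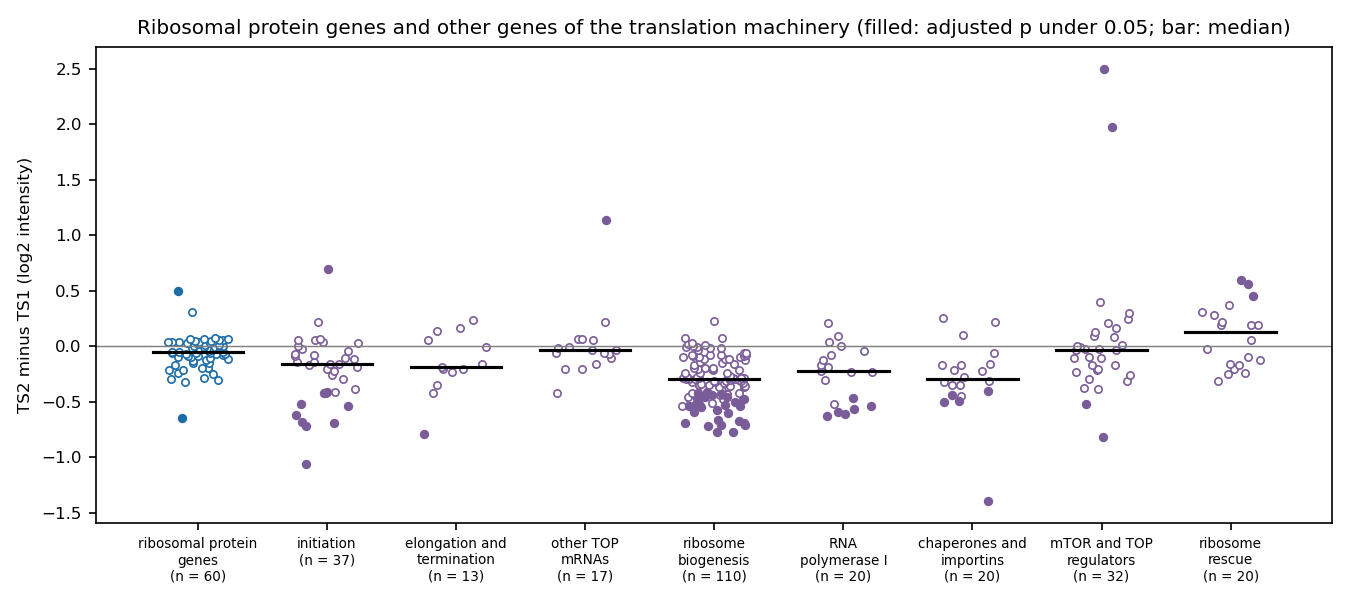
TS2 minus TS1 difference in log2 intensity of each gene, for the ribosomal protein genes (left) and 8 lists of genes of the translation machinery, with a bar at the median; filled points passed an adjusted p under 0.05 by limma. The ribosomal protein genes lie in a narrow band around -0.055, and the biogenesis factors around -0.30 with 27 filled points, all below 0.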

How the data were processed

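RNA of the mouse lines TS2 and TS1, 2 biological duplicates each, was measured on Affymetrix gene arrays. The submitters' processing notes name Affymetrix Expression Console and RMA, without versions. The authors deposited linear intensities (5.98 to 23157), 1 per probe set and array, and log2 was taken here. RMA normalizes between arrays, so a shift shared by most genes is removed. Detection calls, scan days and probe sequences were not used here. Signal over background and batches were therefore not examined, and the small number of arrays limits precision.

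Of 35556 probe sets, 21789 carried 1 gene symbol in the platform annotation, 1621 several and 12146 none. Symbols were updated by Entrez number through RefSeq's gene list for GRCm38.p6 (21698 found), and the brightest single-gene probe set stood for each gene. Some ribosomal protein genes are not reported here. Lines were compared in a single linear model of the 4 arrays (limma 3.58.1, lmFit and eBayes, R 4.3.3, data.table (version 1.17.8)), with 2 residual and 3.03 prior degrees of freedom and Benjamini-Hochberg adjustment over 19938 genes. The fit was run on simulated arrays, with variances drawn from limma's prior, to check the code. No change simulated there was as small as most differences of the ribosomal protein genes. Intervals are 95% and cover each gene alone.

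The members, the lists and the tests were chosen with earlier results of these data known. Named genes are those called, the paralogs and their partners, the 5 greatest differences in each direction per subunit, members on chromosome X, genes without a single-gene probe set, and up to 3 called genes per list and direction. Members without a pyrimidine run in the searched window were also named, after their values were seen. The letters A and B link no samples across the lines. The alternatives were a block for the letter, single arrays left out, other variance priors, array centring, quantile normalization, filters on dim probe sets and genes, the mean of a gene's probe sets, probe sets of several genes, no moderation, a stricter threshold, and limma's treat.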

Additional observations from a re-analysis of the deposited data

How the results depend on the processing

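With the replicate letter as a block (replicate block), 1 ribosomal protein gene was called, Rpl36a (adjusted p = 0.0400 by limma), and 0 were higher in TS2; over all genes 1666 were called, against 2691 without the block. Rps4l then had an adjusted p of 0.0783, and the lower genes were 8 of the biogenesis factors, 4 of the initiation factors, 1 of the polymerase I genes and 1 of the chaperones. No label links the letters across the lines, and the correlation of the A arrays' deviations from their line means was -0.029. Leaving out 1 array in turn gave 0 to 1 called genes, 0 higher and 0 to 1 lower, while all genes gave 979 to 2198. The remaining array is then assumed to vary like the other line, and fewer residual degrees of freedom are left. A prior variance with an intensity trend called 2 lower genes. The mean of all probe sets called 1 gene and 0 higher. Adding probe sets that name 1 such gene anywhere, chosen after seeing the data, called 2 higher. No moderation, an adjusted p under 0.01 and treat against a 1.2-fold minimum called 0 genes, 0 higher and 0 lower, where all genes gave 0, 807 and 1268.

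The median of the large subunit genes was -0.051 to -0.030 with 1 array left out, -0.031 with arrays centred, -0.012 after quantile normalization, -0.048 with the mean of probe sets, -0.047 with probe sets naming such a gene first and -0.027 with those naming it anywhere. That of the paralogs was -0.18 to 0.0034 with 1 array left out and -0.025 after quantile normalization. Centring moved the median of all genes by 0.024 and quantile normalization by 0.0063.

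Rpl36a kept its direction in 17 alternatives (-0.69 to -0.61, adjusted p 0.00147 to 0.121) and lost its call in 5. Rps4l kept its direction (0.21 to 0.55, adjusted p 0.0232 to 0.226) and lost its call in 9. Genes near 0 changed sign, and the cause was not tested. Rpl7 was 0.012 with centring, 0.047 after quantile normalization and 0.0082 with the mean of probe sets. With 1 array left out, it ranged from -0.049 to 0.024, Rpl29 from -0.018 to 0.15, Rplp2 from -0.090 to 0.24, Rps6 from -0.022 to 0.075, Rps14 from -0.052 to 0.14, Rpl32l from -0.27 to 0.073, Rps19 from -0.016 to 0.10, Rps29 from -0.089 to 0.16 and Rps9 from -0.083 to 0.17.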
